A study of Mus musculus with 44 samples.

Results

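Neurotrophins are secreted growth factors that neurons use to regulate survival, dendrite growth and synaptic strength. Brain-derived neurotrophic factor (Bdnf) acts on the receptor tyrosine kinase TrkB (Ntrk2), and neurotrophin-3 (Ntf3) acts mainly on TrkC (Ntrk3). The low-affinity neurotrophin receptor (Ngfr) binds every neurotrophin, and with sortilin (Sort1) it forms the receptor for the uncleaved proforms. Bdnf transcription from some of its start sites is a known response of hippocampal neurons to calcium entry, which makes these genes of interest after a learning event.

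These 6 genes, of the 27179 in the count files, were taken by symbol and described across genotype and time after training. RNA came from dorsal hippocampus of WT mice and of mice homozygous for the Kdm5b DARID allele (Kdm5bDARID/DARID, called mutant here), a germline deletion that removes the ARID domain, truncates the JmjN domain and abolishes the demethylase activity of the protein in every cell. Both genotypes were F2 offspring of an intercross of 2 inbred backgrounds, so both were of mixed background. Parental variants near Kdm5b can still differ between the genotypes. The mice were 7 to 8 weeks old and were taken naive (0 h), or 1 h or 3 h after contextual fear conditioning with 3 foot shocks of 0.7 mA and 2 s. Each of the 6 groups held 6 libraries, 3 labelled male and 3 labelled female, which made 36 libraries in all. Levels below are CPM, the counts of a gene scaled to the library's total with TMM factors, and are given as the lowest, median and highest of a group. Changes are log2 fold changes from edgeR's quasi-likelihood test with their standard error (SE), and a gene was called when its p adjusted over all genes tested was under 0.05. Bulk tissue cannot tell fewer cells of a type from less RNA per cell.

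Library totals ran from 40274435 to 107000233 counts, with a median of 66549999. Kdm5b itself, which is still transcribed from the deletion allele, had a naive mean of 86.4 CPM in WT and one of 80.5 CPM in mutants, and over the 3 time points mutants differed from WT by -0.08 ± 0.02 (SE, adjusted p = 0.0581, edgeR). The tissue label was matched by its markers: the 5 CA1 genes summed to at least 659 CPM and the 6 dentate granule cell genes to at least 376.9 CPM in every library. Transcripts that mark sex went against the label in 2 libraries, those labelled WT 1 h male 1 and mutant 3 h female 2. Kdm5b also lay outside the range of their groups and toward the other genotype, at 79.4 CPM in the first, against 89.9 to 97.0 CPM in the other 5 libraries, and at 93.8 CPM in the second, against 77.6 to 86.1 CPM. Both stayed under their labels, and their genotype was not tested in another way. Without them the Kdm5b difference was -0.11 ± 0.02 (adjusted p = 0.00113). The 5 choroid plexus genes, which mark tissue that lies beside the hippocampus, summed to between 42.3 and 7875 CPM and overlapped between all groups. Their group medians were higher in WT than in mutants at each time. They were 2078 against 191 CPM at 0 h, 1033 against 125 CPM at 1 h and 2190 against 1468 CPM at 3 h. The part of this imbalance in the genotype differences below was not tested.

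Bdnf is the member best known for activity-dependent transcription, so the region before one of its start sites is shown. The set of promoter windows used here (RefSeq, GRCm38.p6) gave 7 windows of 250 bases before a start site for Bdnf, 2 for Ntf3, 1 for Ntrk2 and 1 for Ngfr. It held none for Ntrk3 and Sort1, though both genes have RefSeq coordinates. One Bdnf window, chr2:109692186-109692435 on the plus strand, held the letters TGACG (part of the cAMP-response element, here on the reverse strand as CGTCA), TATTTCGAG and CATATG (an E-box), which are the elements described for the calcium-responsive promoter IV. They are in capitals.
Bdnf, 250 bases before the start site: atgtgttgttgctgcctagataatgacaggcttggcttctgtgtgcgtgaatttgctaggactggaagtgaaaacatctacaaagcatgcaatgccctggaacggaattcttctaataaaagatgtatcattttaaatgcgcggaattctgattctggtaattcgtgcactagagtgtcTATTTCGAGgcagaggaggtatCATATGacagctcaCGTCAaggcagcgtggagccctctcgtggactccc

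The capitals span from 71 to 31 bases before the start site. Searched on both strands, TGACG was in 17.8% of the 32851 promoter windows of all genes, CATATG in 3.46% and TATTTCGAG in 0.0457%. CATATG was also in 1 other Bdnf window. The full element TGACGTCA was in 1.55% of all windows and in none of the 11 member windows, and the E-box CACGTG was in 6.02% of all windows and in 1 of Ntf3. A match is a description of letters only. The counts sum reads over the whole gene, so a change at this start site alone would be diluted by transcripts from the others.

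Sort1 was the most abundant of the 6 genes and Ngfr the least. Per kilobase of annotated exon, and over all 36 libraries, Sort1 was at 111.5 ± 6.28 CPM per kb (SD), Ntrk2 at 27.7 ± 1.76, Bdnf at 8.86 ± 0.93, Ntf3 at 4.58 ± 0.80, Ntrk3 at 3.44 ± 0.25 and Ngfr at 0.46 ± 0.15. Neighbours in this order did not overlap in any library, except for Ntf3 and Ntrk3. With exons of the basic transcript set only, Ntrk3 was at 4.72 CPM per kb, above Ntf3, so the order of these 2 genes depends on which exons are counted. TrkB and TrkC have truncated isoforms without a kinase domain, which the gene counts do not separate.

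**Figure D1:**
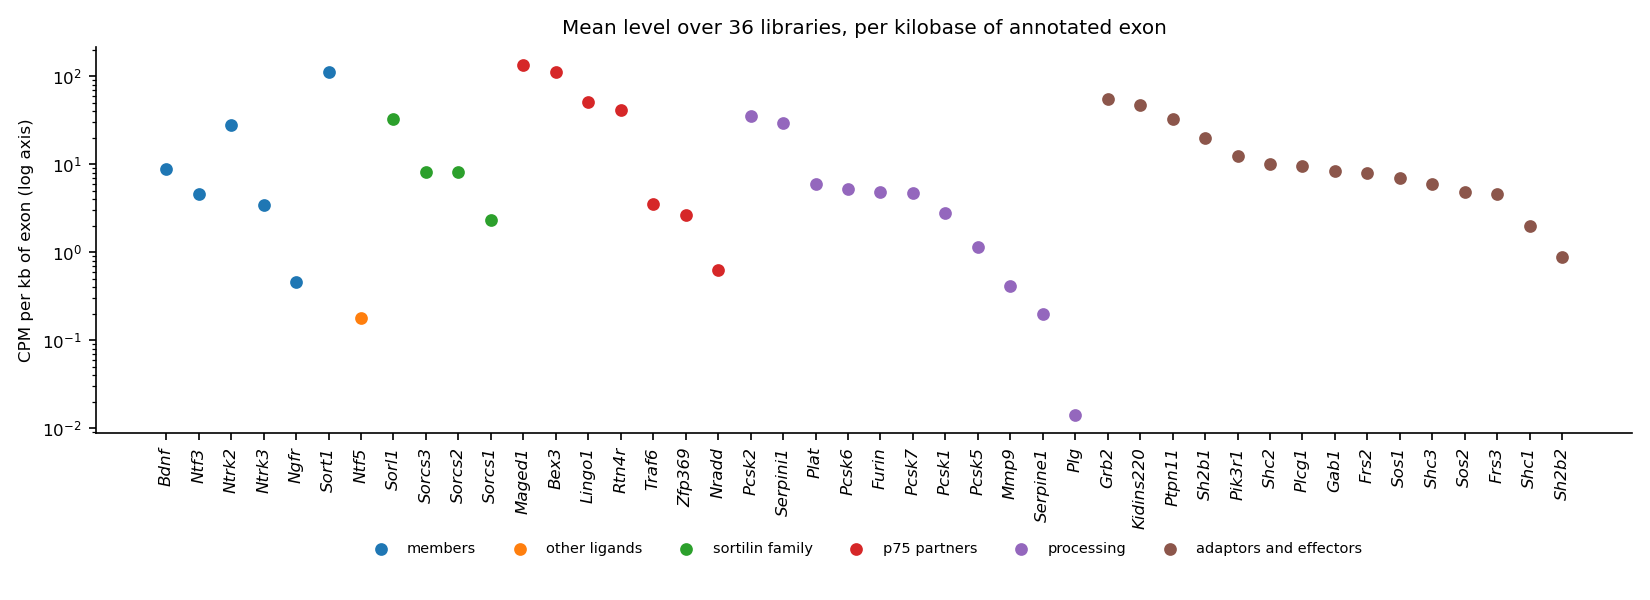
Mean level over 36 libraries in CPM per kb of annotated exon (log axis) of the 6 genes and of 38 further genes of the pathway, coloured by role, 1 point a gene. Sort1 sits at 111.5 CPM per kb beside Bex3 at 112.6, while Ngfr at 0.46 is among the lowest.

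No member was called in any of the 17 comparisons by edgeR. Of the 102 member values, 8 had an unadjusted p under 0.05, which is 7.84%, beside 8.18% of the values of all genes, and DESeq2 called 1. Set beside the members' 0 of 6, the share of all genes called was 0% between genotypes at 0 h, 0% at 1 h and 0.0115% at 3 h. It was 0% in WT mice for each of the 3 pairs of time points. In mutants it was 0.312% for 1 h against 0 h, and 0% for 3 h against 0 h and 3 h against 1 h. Over both genotypes it was 1.05% for 1 h against 0 h, 1.57% for 3 h against 0 h and 0.486% for 3 h against 1 h. For the genotype difference in the response it was 0% at each pair of time points, over the 3 time points it was 1.3% between genotypes, and between sexes it was 0.0825%. With so few genes called, 0 of 6 members is near the background in every comparison. The fitted changes of the members were small: Sort1 stayed between -0.03 and 0.05 over the 17 comparisons, Ntrk2 between -0.08 and 0.14, Ntrk3 between -0.11 and 0.16, Bdnf between -0.19 and 0.16, Ntf3 between -0.24 and 0.17 and Ngfr between -0.21 and 0.26.

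**Figure D2:**
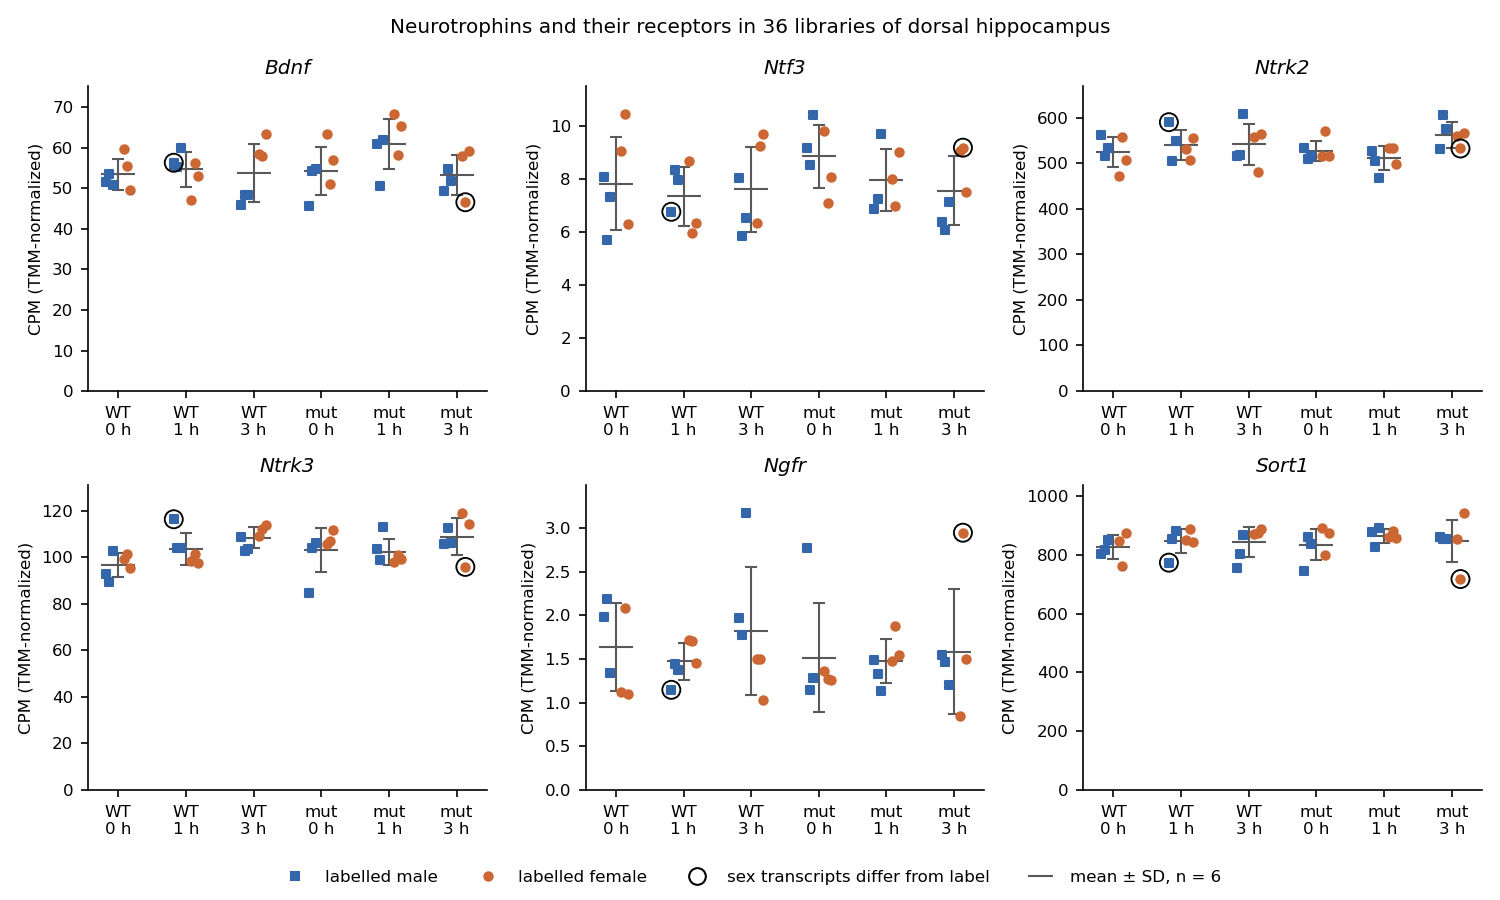
Level of each gene in CPM (TMM-normalized) in every library, by genotype and time (mut, mutant), with squares for libraries labelled male and circles for those labelled female. Grey marks are the mean ± SD of 6 libraries, and rings mark the 2 libraries whose sex transcripts differ from the label. The groups overlap in every panel but for Ntrk3 between WT 0 h and WT 3 h.

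Bdnf, the ligand of TrkB, lies at chr2:109674700-109727007 (GRCm38, plus strand) with 11 annotated transcripts, and shares its locus with the antisense gene Gm45346. In WT mice its lowest, median and highest levels were 49.5, 52.6 and 59.8 CPM at 0 h, 47.2, 55.8 and 59.9 CPM at 1 h, and 45.8, 53.2 and 63.6 CPM at 3 h. In mutants they were 45.6, 54.6 and 63.3 CPM at 0 h, 50.7, 61.5 and 68.4 CPM at 1 h, and 46.6, 53.3 and 59.4 CPM at 3 h. The mutant 1 h group had the highest median of the 6, and it overlapped every other group. It also had the lowest median of choroid plexus transcripts, and over the 36 libraries the level of Bdnf ran against these transcripts (r = -0.46), whose part in the Bdnf values was not tested. Bdnf was 0.16 ± 0.07 higher (log2, SE) in mutants at 1 h than at 0 h (adjusted p = 0.407), and 0.16 ± 0.07 higher in mutants than in WT at 1 h (adjusted p = 0.575). It was then lower at 3 h than at 1 h in mutants (-0.19 ± 0.07, adjusted p = 0.531).

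In WT mice Bdnf at 1 h differed from 0 h by 0.03 ± 0.06 (95% interval -0.10 to 0.16), and single libraries moved this small value, to 0.00 without WT 1 h male 3, 0.07 without WT 1 h female 1 and 0.07 without WT 0 h female 1. The test of the genotype difference in this response gave 0.13 ± 0.10 (95% interval -0.08 to 0.34, adjusted p = 0.999), so a larger response in mutants was not shown. Exact two-sided permutation over all divisions of the 12 libraries into 6 and 6 gave unadjusted p of 0.0974 for mutant 1 h against 0 h, 0.0801 between genotypes at 1 h and 0.0433 for mutant 3 h against 1 h. Over both genotypes the change from 0 h to 1 h was 0.10 ± 0.05 (adjusted p = 0.447), and over the 3 time points the difference between genotypes was 0.06 ± 0.04 (adjusted p = 0.593). None of these was called. Without the 2 libraries of discordant sex, Bdnf differed between genotypes by 0.17 ± 0.08 at 1 h and by 0.07 ± 0.04 over time, and in mutants at 3 h against 1 h by -0.14 ± 0.06, the genotype difference in the Bdnf response from 0 h to 1 h was 0.15 ± 0.11, the change from 0 h to 1 h over both genotypes was 0.09 ± 0.05, and again none was called.

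Bdnf was also the member with the smallest p between sexes. Libraries labelled female were 0.11 ± 0.04 higher than those labelled male (adjusted p = 0.938), or 0.13 ± 0.04 (adjusted p = 0.538) without the 2 libraries of discordant sex, and the female mean was higher in 5 of the 6 groups. WT mice at 3 h, picked out after their values were seen, had the widest gap: the females were at 57.9, 58.6 and 63.6 CPM and the males at 45.8, 48.3 and 48.4 CPM. In those libraries the females of 8.78% of all genes lay wholly above the males, so such a gap is not rare. An exact permutation of sex within each group gave p = 0.0263 for Bdnf with all libraries and p = 0.00701 without the 2 libraries of discordant sex, unadjusted, for a single gene of 6.

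Ntf3, the ligand of TrkC, lies at chr6:126101412-126166910 (minus strand) and was counted by 232 to 901 reads a library. Its lowest, median and highest levels in WT were 5.70, 7.69 and 10.4 CPM at 0 h, 5.96, 7.34 and 8.68 CPM at 1 h, and 5.85, 7.26 and 9.67 CPM at 3 h. Mutants had 7.10, 8.83 and 10.4 CPM at 0 h, 6.87, 7.60 and 9.68 CPM at 1 h, and 6.08, 7.31 and 9.17 CPM at 3 h. The 6 groups overlapped. The largest difference was between mutants at 3 h and at 0 h (-0.24 ± 0.12, adjusted p = 0.651), and without mutant 3 h female 2 it was -0.29 ± 0.12 for Ntf3 (adjusted p = 0.406). Over both genotypes the same pair gave -0.15 ± 0.10 (adjusted p = 0.528), over time mutants differed from WT by 0.10 ± 0.08 (adjusted p = 0.625; 0.07 ± 0.08 without the 2 libraries of discordant sex), and libraries labelled female from male by 0.12 ± 0.08 (adjusted p = 0.988). The mean spread within a group was a coefficient of variation of 17.4%, above that of 81.3% of the 14577 genes with a mean of at least 1 CPM. Those genes were not matched to Ntf3 in level.

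Ntrk2, which encodes TrkB, lies at chr13:58806569-59133970 (plus strand) and overlaps antisense genes such as 4930415C11Rik. Levels in WT were 472.7, 524.3 and 561.4 CPM at 0 h, 505.8, 540.6 and 590.4 CPM at 1 h, and 480.7, 538.6 and 609.0 CPM at 3 h, again as lowest, median and highest. Mutants were at 509.7, 516.5 and 570.1 CPM at 0 h, 467.4, 516.5 and 534.3 CPM at 1 h, and 532.3, 562.7 and 607.1 CPM at 3 h. Of the 6 mutant libraries at 3 h, 4 lay above all mutant libraries at 1 h, and the share of all genes that do so was not counted. The change from 1 h to 3 h in mutants was 0.14 ± 0.05 (adjusted p = 0.503, exact permutation p = 0.0130 unadjusted), and that from 0 h to 3 h was 0.09 ± 0.05 (adjusted p = 0.619). In WT the change from 1 h to 3 h was 0.00 ± 0.06, and the test of the genotype difference in it gave 0.14 ± 0.07 (adjusted p = 0.995). No difference in Ntrk2 was called. Without the 2 libraries of discordant sex, the Ntrk2 change from 1 h to 3 h in mutants was 0.16 ± 0.05 (adjusted p = 0.253) and the genotype difference in it 0.12 ± 0.07, the change from 0 h to 3 h in mutants was 0.11 ± 0.04, and that from 1 h to 3 h in WT was 0.03 ± 0.06.

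Ntrk3, which encodes TrkC, lies at chr7:78175959-78738012 (minus strand) with 20 annotated transcripts, and genes such as 4921513I08Rik lie within it on the other strand. WT mice had 89.5, 97.3 and 102.7 CPM at 0 h, 97.4, 102.7 and 116.4 CPM at 1 h, and 102.9, 108.8 and 114.0 CPM at 3 h. In mutants the values were 84.5, 106.1 and 111.7 CPM at 0 h, 97.8, 100.1 and 113.0 CPM at 1 h, and 95.9, 109.4 and 119.2 CPM at 3 h. The 6 WT libraries at 3 h lay above the 6 at 0 h, by a gap of less than 1 CPM that closed with RLE size factors, whereas the mutant groups overlapped. Of the 6 naive mutants, 5 also lay above every naive WT library, all but mutant 0 h male 1, and the genotype difference at 0 h was 0.09 ± 0.06 (adjusted p = 0.876) with that library and 0.13 ± 0.04 (adjusted p = 0.412) without it. With all 12 libraries the exact permutation p at 0 h was 0.212, unadjusted, and the share of all genes with such a near-separation was not counted. Between WT at 3 h and at 0 h, 0.258% of all genes had a 3 h group wholly above the 0 h group. In the same comparison Ntrk3 was 0.16 ± 0.04 higher at 3 h (95% interval 0.07 to 0.25, adjusted p = 0.421, edgeR). The exact permutation p was 0.00216, the smallest that 6 against 6 libraries allow two-sided.

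DESeq2 called this WT difference (adjusted p = 0.0292) and edgeR did not, with adjusted p between 0.167 and 0.760 when each library was left out. In that comparison DESeq2 called 51 genes higher and 29 lower of 17438, where edgeR with all libraries called 0. In mutants the same pair of time points differed by 0.08 ± 0.07 (95% interval -0.06 to 0.22, adjusted p = 0.814), and the test of the genotype difference in the change gave -0.08 ± 0.08 (adjusted p = 1.000), so a response particular to WT was not shown. The mutant value rested on single libraries: it was 0.13 (adjusted p = 0.422) without mutant 3 h female 2 and 0.03 (adjusted p = 0.939) without mutant 0 h male 1. Without the 2 libraries of discordant sex the genotype difference in the Ntrk3 change was -0.04 ± 0.07. Over both genotypes Ntrk3 at 3 h was 0.12 ± 0.04 above 0 h (adjusted p = 0.120) and 0.08 ± 0.03 above 1 h (adjusted p = 0.394). Without the library mutant 3 h female 2 the first became 0.14 ± 0.03 and was called (adjusted p = 0.0199), and without the 2 libraries of discordant sex the second became 0.12 ± 0.03 and was called (adjusted p = 0.0411). At 1 h, WT differed from 0 h by 0.09 ± 0.05 (adjusted p = 0.926), and by 0.06 ± 0.05 without WT 1 h male 1.

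Sort1, the co-receptor for proneurotrophins and a sorting receptor for Bdnf, lies at chr3:108284082-108361511 (plus strand) and overlaps the antisense gene Gm12523. Its levels in WT were 761, 832 and 876 CPM at 0 h, 773, 851 and 888 CPM at 1 h, and 757, 870 and 887 CPM at 3 h. In mutants they were 746, 849 and 891 CPM at 0 h, 826, 868 and 893 CPM at 1 h, and 718, 853 and 943 CPM at 3 h. These groups overlapped almost wholly, and the mean coefficient of variation within a group was 5.61%, below the median of 8.69% over genes with at least 1 CPM. Those genes were not matched to Sort1 in level. The largest fitted change was 0.05 ± 0.04 for mutants at 1 h against 0 h (adjusted p = 0.723), and over the 3 time points mutants differed from WT by 0.02 ± 0.03 (95% interval -0.04 to 0.07, adjusted p = 0.844). The first was 0.02 without mutant 0 h male 1, and the second 0.04 (adjusted p = 0.397) without that library and mutant 3 h female 2. Without the 2 libraries of discordant sex the second was 0.02 ± 0.02 for Sort1.

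Ngfr lies at chr11:95568818-95587735 (minus strand) and was counted by 54 to 224 reads a library. In WT its lowest, median and highest levels were 1.097, 1.66 and 2.19 CPM at 0 h, 1.15, 1.45 and 1.71 CPM at 1 h, and 1.03, 1.63 and 3.18 CPM at 3 h. In mutants they were 1.15, 1.28 and 2.77 CPM at 0 h, 1.13, 1.48 and 1.88 CPM at 1 h, and 0.85, 1.48 and 2.95 CPM at 3 h. All groups overlapped, and a single high library stood apart in both the mutant 0 h and the mutant 3 h group. The largest fitted change was 0.26 ± 0.23 for WT at 3 h against 1 h (adjusted p = 0.871). It rested on WT 3 h male 3, at 3.18 CPM against 1.03 to 1.97 CPM in the other 5, and was 0.07 (adjusted p = 0.987) without that library. Mutants over time differed from WT by -0.10 ± 0.14 (95% interval -0.39 to 0.20, adjusted p = 0.815). Without the 2 libraries of discordant sex these values for Ngfr were 0.15 ± 0.23 and -0.22 ± 0.13, neither called. The mean coefficient of variation within a group was 31.4%, the widest of the 6 genes.

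**Figure D3:**
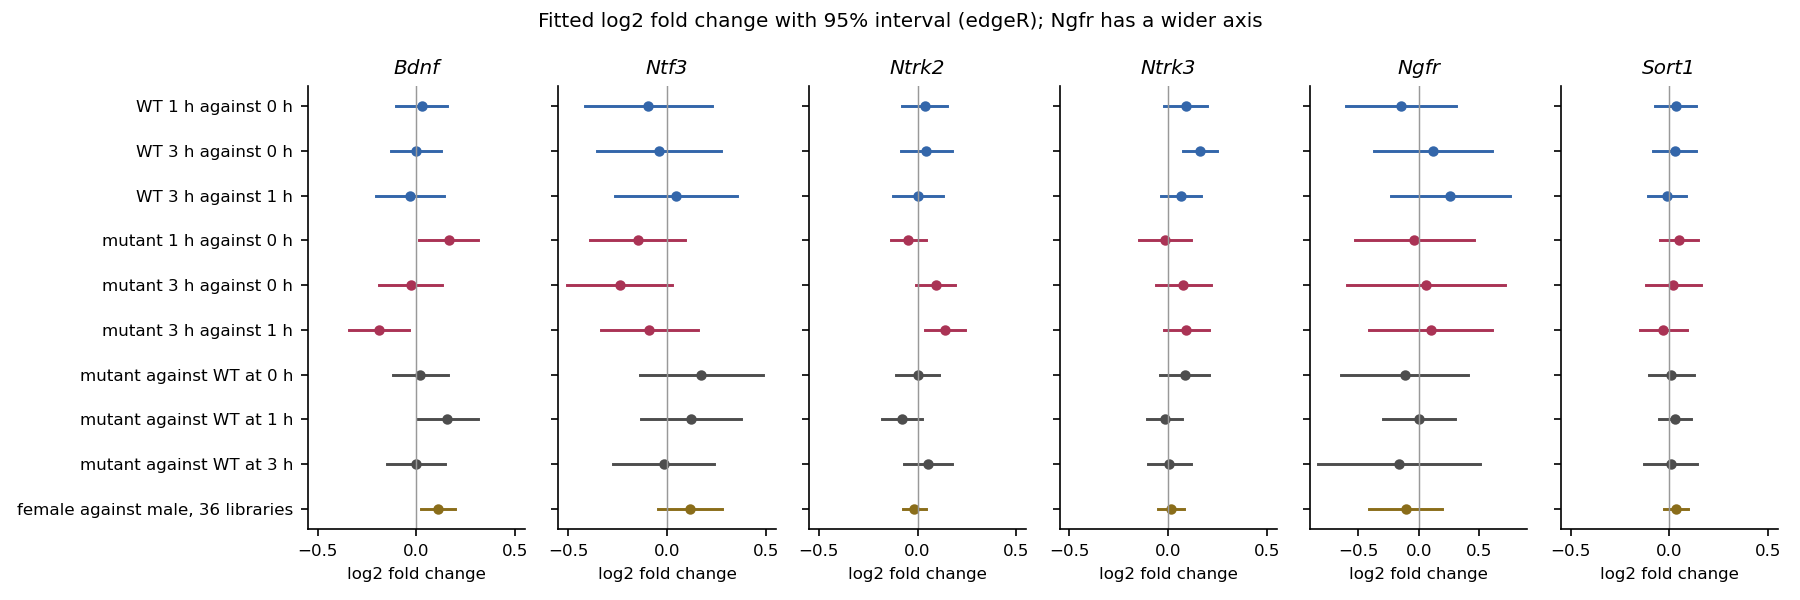
Fitted log2 fold change (point) with its 95% interval (line) for the 6 genes in the 9 pairwise comparisons and between sexes, from edgeR, with a wider axis for Ngfr. Most intervals span 0, and those of Sort1, Ntrk2 and Ntrk3 are the narrowest.

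High Ngfr went with choroid plexus transcripts (r = 0.61 over the 36 libraries), while the other members ran against them (Bdnf -0.46, Sort1 -0.45, Ntrk3 -0.41 and Ntf3 -0.35) except for Ntrk2 (0.29). Sort1 ran further against the oligodendrocyte (-0.57) and striatal (-0.54) markers, and Ntrk3 went with those of dentate granule cells (0.48). These r describe libraries that share depth and dissection, and the part of such tissue in the members' levels was not tested. The 5 libraries highest in Ngfr had between 2083 and 7875 CPM summed over the 5 choroid plexus genes. The 16 libraries with a sum of at least 1000 CPM had Ngfr between 1.119 and 3.18 CPM with a median of 1.74, and the 20 others between 0.85 and 1.88 CPM with a median of 1.33. Libraries with a high sum were not all high in Ngfr.

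**Figure D4:**
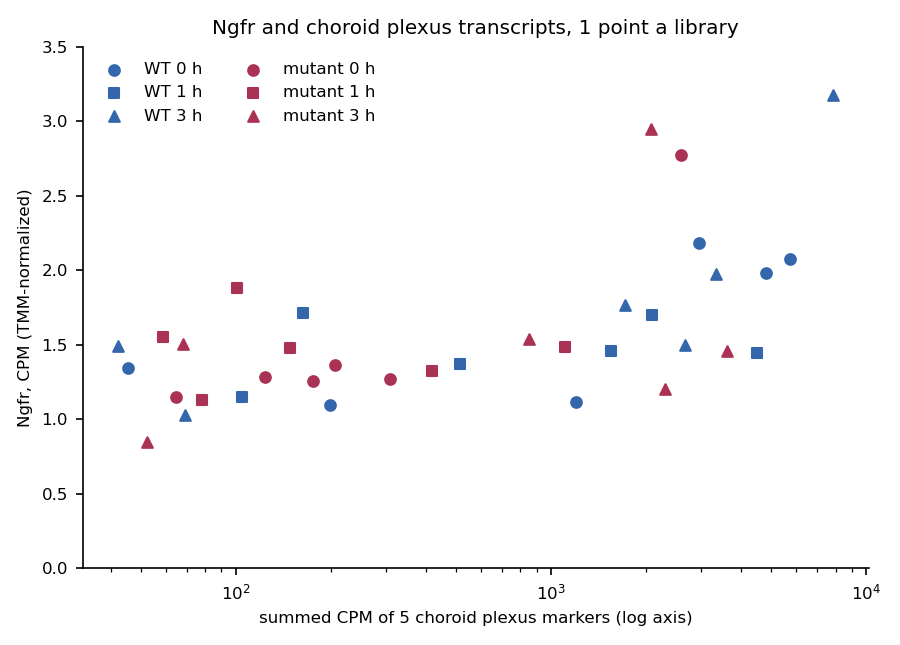
Ngfr in CPM (TMM-normalized) against the summed CPM of 5 choroid plexus markers (log axis), 1 point a library, coloured by genotype with a marker for each time. The 3 libraries highest in Ngfr, at 2.77, 2.95 and 3.18 CPM, all lie at 2083 CPM or more on the horizontal axis.

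A pair of libraries, mutant 0 h male 1 and mutant 3 h female 2, were picked out after their values were seen. Each held the highest or lowest value of its group in the same 4 of the 6 genes. They held the third and second highest Ngfr, at 2.77 and 2.95 CPM, against at most 1.37 and 1.54 CPM in the other 5 libraries of their groups. They held the lowest Sort1 of all 36 libraries, at 746 and 718 CPM, and the lowest Ntrk3 of their groups, at 84.5 and 95.9 CPM. Bdnf was also lowest in its group in both, at 45.6 and 46.6 CPM, while Ntrk2 lay within the range of the other 5 libraries in both, and Ntf3 in the first.

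A list of 7 genes of cholinergic and septal neurons, chosen after these values were seen (Chat, Slc18a3, Slc5a7, Lhx8, Gbx1, Zic1 and Zic2), summed to 138.5 and 177.2 CPM in this pair, the highest of all, against 19.1 to 133.4 CPM in the others. The sum was carried by Zic1 and Zic2: the cholinergic genes Slc18a3 and Slc5a7 were highest in mutant 1 h male 1, at 1.42 and 5.02 CPM, and Zic2 in mutant 0 h male 3, at 48.8 CPM, lay above 1 of the pair. Zic1 made up most of the sum, with 82.6 and 112.9 CPM. Lhx8 and Gbx1 were highest in the pair, at no more than 1.70 CPM. The 5 striatal genes were also at their group's highest, at 69.1 and 49.3 CPM. Choroid plexus genes were at their group's highest in mutant 0 h male 1 only (2586 CPM). In mutant 3 h female 2 only, this held for the oligodendrocyte (10090 CPM), thalamic (158.8 CPM), astrocyte (1671 CPM), meningeal (57.8 CPM) and CA2 (301 CPM) lists.

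Without both libraries, the difference of mutants from WT in Ngfr over the 3 time points was -0.27 (adjusted p = 0.270), where it was -0.10 with all libraries. Ntrk3 over both genotypes was 0.12 ± 0.03 higher at 3 h than at 0 h and was called (adjusted p = 0.0219), in a fit that called 239 genes higher and 109 lower of 18002. The fitted differences of Bdnf in mutants were nearer 0, at 0.13 for 1 h against 0 h (adjusted p = 0.516) and -0.14 for 3 h against 1 h (adjusted p = 0.508), while that of mutants from WT over time was farther from 0, at 0.08 (adjusted p = 0.278). The other comparisons still held 0 called members without the pair.

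Ntf5, the other ligand of TrkB, was rare, at 0.47 ± 0.24 CPM (SD, n = 36). Its smallest p was in mutants at 3 h against 1 h (0.76 ± 0.28, adjusted p = 0.527), and it was not called in any comparison.

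Of the 40 further pathway genes, 3 were called in some comparison, and 38 or 39 were tested in each. Over both genotypes 2 of 39 were called for 1 h against 0 h (1.05% of all genes) and 1 of 38 for 3 h against 0 h (1.57% of all genes), all higher, and 1 of 39 was called between genotypes over time (1.3% of all genes), higher in mutants. In the other 14 comparisons edgeR called 0, with between 0 and 11 at an unadjusted p under 0.05. The 11 were for 3 h against 1 h over both genotypes, 28.95% of the 38 tested beside 11.1% of all genes. Over the 17 comparisons 13.5% of the pathway values had such a p, beside 8.18% of those of all genes, with no test of this difference. The median log2 change of these genes was 0.02 for 1 h against 0 h and for 3 h against 0 h over both genotypes, where the median of all genes was -0.01 in each, and that of the 6 members was 0.02 and 0.05.

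Sh2b1, an adaptor that couples Trk receptors to downstream kinases, was the gene called in 2 of them. Its lowest, median and highest levels in WT were 72.3, 75.7 and 78.0 CPM at 0 h, 76.1, 81.6 and 88.9 CPM at 1 h, and 78.1, 81.2 and 83.8 CPM at 3 h. In mutants these were 72.5, 73.7 and 76.6 CPM at 0 h, 74.6, 81.1 and 81.9 CPM at 1 h, and 75.7, 80.9 and 85.9 CPM at 3 h. Sh2b1 rose by 0.10 ± 0.03 at 1 h (adjusted p = 0.0453) and by 0.12 ± 0.02 at 3 h (adjusted p = 0.0136), and the second call held without any 1 library while the first held in only 6 of 24 such fits.

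Traf6, a ubiquitin ligase that binds the low-affinity receptor, rose at 1 h over both genotypes (0.15 ± 0.03, adjusted p = 0.0274) and was called in 17 of 24 fits that left out a library. In WT it was at 24.4, 26.7 and 28.5 CPM at 0 h and 27.5, 30.1 and 32.5 CPM at 1 h, and in mutants at 25.4, 26.7 and 27.2 CPM and 27.1, 29.4 and 32.2 CPM. At 3 h it was at 24.3, 27.2 and 30.4 CPM in WT and 24.4, 27.6 and 32.3 CPM in mutants, with medians nearer those of 0 h than those of 1 h. Pcsk6, a proprotein convertase, was higher in mutants over the 3 time points (0.20 ± 0.05, adjusted p = 0.0468), with medians of 24.3, 26.9 and 24.8 CPM in WT and 29.7, 27.95 and 28.3 CPM in mutants at 0, 1 and 3 h. This call was lost without the 2 libraries of discordant sex (adjusted p = 0.0527), without the pair of libraries above (adjusted p = 0.0681) and with no filter on low counts (adjusted p = 0.0535). Sorl1, of the sortilin family, had the smallest p of that family between genotypes at 1 h (0.21 ± 0.05, adjusted p = 0.215) and was not called by edgeR, while DESeq2 called it (adjusted p = 0.00921).

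The genes whose levels followed each member most closely over the 36 libraries were taken from 14576 genes with at least 1 CPM, by Pearson's r of log2 CPM and with no test, as libraries share depth and tissue. For Sort1 the closest were Cnksr2 (r = 0.85), Gnaq, Reps2, Lrp11 and Creg2. Ntrk3 was closest to Rin1 (r = 0.81), Shisa7, Cacnb2, Trank1 and Dscaml1, and Bdnf to Ppfia2 (r = 0.76), Mapk14, Arl14ep, Prkg1 and Zfp804a. Ntrk2 was closest to Nwd1 (r = 0.76) and Clu, followed by Sft2d2, Plce1 and Zadh2. Ngfr was closest to Kcnh2 (r = 0.79), Pcp4l1, Cd63, Emb and Cd82, and Ntf3 to Pde1b (r = 0.61), Itga8, 2810039B14Rik, Gpr12 and Mcm6. Leaving out the 2 libraries farthest from each member's median kept these 6 leading values between 0.58 and 0.78. Among the members, the highest r was that of Bdnf with Sort1 (0.59) and the lowest that of Ntrk3 with Ngfr (-0.57), and each ligand was only weakly related to its own Trk receptor, with -0.16 for Bdnf and Ntrk2 and 0.10 for Ntf3 and Ntrk3.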

How the data were processed

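RNA was sequenced as poly-A selected paired-end libraries. The authors aligned reads with STAR 2.7.8a to mm10 and deposited raw counts per gene, 1 table a library, made with featureCounts 2.0.1. The annotation and strand setting of that counting are not given in the sources used here, so antisense partners of Bdnf, Ntrk2, Ntrk3 and Sort1 could share their reads. Of 44 samples, 8 were not analysed here. Gene IDs were matched to symbols for 25275 of 27179 genes, and genes without a symbol held 1.28% of counts. Coordinates and exon lengths are from GRCm38 annotation, promoter sequence from RefSeq GRCm38.p6.

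The 6 members, the pathway and marker lists and the tests were chosen with earlier results of these data known. Counts were tested in edgeR 4.0.16 (R 4.3.3; TMM, robust quasi-likelihood F-test) after removing genes below a minimum count of 10 with filterByExpr, with labelled sex as covariate and Benjamini-Hochberg adjustment over all genes tested. Each genotype comparison at a time point, and each pair of time points within a genotype, used its 12 libraries. Time over both genotypes and its interaction with genotype used 24, and genotype over time and sex used 36. The steps were tested on simulated data. Libraries are labelled as separate mice. Named pathway genes were those called, those with the smallest p of their role and those near 0 counts (some are not reported here), and the 5 genes most like each member were named by r.

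Alternatives were RLE size factors, no filter, no sex covariate, DESeq2 1.42.0, 1 fit over all libraries, exact permutation (SciPy 1.17.1), a replicate block, and leaving out the 2 libraries of discordant sex. Each library was left out in turn for the genotype comparisons, for time within a genotype and for time over both genotypes, but not for the interactions, genotype over time or sex. Leaving out libraries from the fits over both genotypes and from 3 h against 1 h within a genotype, the basic exon lengths, the permutation of sex and leaving out the pair mutant 0 h male 1 and mutant 3 h female 2 were chosen after seeing the data. Same-numbered libraries of the same sex deviated together (r over 0.1 in all 6 pairs) for mutant against WT at 0 h (0.156 to 0.482) and mutant 1 h against 0 h (0.315 to 0.556). In the other 7 pairwise comparisons 3 to 5 of the 6 pairs had an r over 0.1. In each of the 2 named comparisons, 3 of 6 libraries were closest to the one of their own number, and in the others 0 to 4.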

Additional observations from a re-analysis of the deposited data

Results flagged for a closer look

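Within the 6 libraries of a group, a library stood far from the others in 6 of 36 sets of member and group, where chance flags about 1 in 20 groups. Ntrk3 was low in mutant 0 h male 1, at 84.534 CPM with the nearest library at 104.24 CPM. It was high in WT 1 h male 1, at 116.4 CPM with the nearest at 104.18 CPM, and in mutant 1 h male 3, at 112.98 CPM with the nearest at 103.43 CPM. Ngfr was high in mutant 0 h male 1, at 2.7745 CPM with the nearest at 1.3673 CPM, and in mutant 3 h female 2, at 2.9468 CPM with the nearest at 1.5422 CPM. Sort1 was low in WT 1 h male 1, at 773.45 CPM with the nearest at 845.24 CPM. Of these 4 libraries, WT 1 h male 1 and mutant 3 h female 2 are those whose sex transcripts went against the label.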

How the results depend on the processing

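The count of called members was 0 in all 17 comparisons and became 1, always Ntrk3, in WT at 3 h against 0 h with DESeq2. It also became 1 over both genotypes for 3 h against 0 h and for 3 h against 1 h without the 2 libraries of discordant sex, and for 3 h against 0 h without the pair mutant 0 h male 1 and mutant 3 h female 2. Of all genes, that DESeq2 fit called 51 higher and 29 lower of 17438. Without the libraries of discordant sex, 370 were higher and 159 lower of 18060 for 3 h against 0 h. For 3 h against 1 h, 118 were higher and 258 lower of 18000. Without the pair, 239 were higher and 109 lower of 18002. Leaving out each library gave 0 to 1 called members for 3 h against 0 h over both genotypes, where the 1 was without mutant 3 h female 2. Of 1752 member values under the alternatives, 124 changed sign, 96 of them among 1080 with a library left out, and none with RLE size factors, no filter or DESeq2. Ntrk2 in WT at 3 h against 1 h, near 0 with all libraries, ran from -0.033 to 0.035 with a library left out. The replicate block was fitted for the 9 pairwise comparisons only, not over both genotypes, and changed no member's call there: with it, Ntrk3 in WT at 3 h against 0 h was 0.16 (adjusted p = 0.489). The number of all genes called moved more: for 3 h against 0 h over both genotypes it was 281, and ran from 142 to 548 without 1 library and from 229 to 737 under the other alternatives. For 1 h against 0 h it was 188 (79 to 359, and 113 to 433), for 3 h against 1 h 87 (16 to 231, and from 42 with no filter to 118 higher and 258 lower without the 2 libraries of discordant sex), for mutants at 1 h against 0 h 54 (26 to 86, and 37 to 370), and between genotypes over time 237 (192 to 559 under the other alternatives). Between genotypes the 0, 0 and 2 genes called at 0, 1 and 3 h reached at most 15, 111 and 47, and the 0 called in WT at 1 h against 0 h, 3 h against 0 h and 3 h against 1 h at most 9, 80 and 63. In mutants the 0 called at 3 h against 0 h and 3 h against 1 h reached at most 142 and 73. Ngfr had the fewest reads of the 6 genes, 54 to 224 a library.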
